A study of Caenorhabditis elegans with 2 samples.

Results

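The regions described here are sites on the 5 autosomes of Caenorhabditis elegans. At them the zinc finger protein Y55F3AM.14, named znf-782 in RefSeq, was recovered with chromatin, away from protein-coding, tRNA and snoRNA gene starts. The regions were chosen from the 1604 regions of the deposited optimal list, which the authors made with an irreproducible discovery rate threshold. A region was kept if its summit lay on an autosome, outside every protein-coding gene body of RefSeq WBcel235, over 500 bp from every protein-coding transcript start and over 500 bp from every tRNA and snoRNA start. Of 1262 autosomal optimal regions, 780 had a summit outside protein-coding genes. A protein-coding start lay within 500 bp for 343 of these, a tRNA or snoRNA start for a further 41, and 396 remained. These 396 are called distal regions. Within the optimal list, which holds the highest-scoring regions of the list made from both replicates together, the rule used position only. Motifs and differences in score within the optimal list did not enter the rule. Nor did neighbouring features other than protein-coding genes and tRNA and snoRNA starts.

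The study held 1 group of 2 biological replicates of whole L2 larvae of strain OP608, profiled by chromatin immunoprecipitation and sequencing (ChIP-seq) with an antibody to GFP. The animals were of mixed sex, were bleached, starved at L1 and collected at 42 hours, and their chromatin was sonicated to between 200 and 800 bp, per the labels. Their genotype was the allele unc-119(tm4063) with the integrated transgene wgIs608, in which Y55F3AM.14 carries TY, EGFP and 3xFLAG, and which also holds unc-119(+) as a rescue. Both replicates carry the same allele and transgene, all cell types of the larva were mixed, and no ChIP from animals without the transgene was analysed here.

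A transcription factor is found at sequences that its DNA-binding domain recognises, and also at accessible chromatin that many factors share. In C. elegans most intergenic gaps are short, and a large part of regulatory DNA lies close to a gene start. Sites farther away in the gaps between genes are candidate enhancers, starts of transcripts of operons or trans-spliced genes whose annotated start lies downstream, or starts of non-coding RNA genes. C2H2 zinc finger proteins form a large family of factors, each finger of which can contact a few bases.

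The sequences at the strongest distal summits are shown first, because the motifs in them gave the smallest p-values of the features compared with weaker regions. Each window is the 151 bp centred on the summit in WBcel235, from RefSeq, named by the protein-coding genes on its left and right. Capitals mark GAGAGA and GACGC, found on either strand, where the motifs can share letters. The first set shows windows that hold at least 1 of them.
T04C4.3/fnip-2, chrIV:2219549-2219699, + strand: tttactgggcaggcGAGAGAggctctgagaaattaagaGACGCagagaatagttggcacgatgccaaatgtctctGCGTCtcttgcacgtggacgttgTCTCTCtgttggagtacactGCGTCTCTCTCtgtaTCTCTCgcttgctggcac
srw-60/nhr-88, chrII:2974064-2974214, + strand: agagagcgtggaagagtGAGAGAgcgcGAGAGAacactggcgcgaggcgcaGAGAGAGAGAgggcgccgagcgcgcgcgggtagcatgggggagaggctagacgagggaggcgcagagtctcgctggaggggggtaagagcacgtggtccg
chw-1/egl-9, chrV:10466716-10466866, + strand: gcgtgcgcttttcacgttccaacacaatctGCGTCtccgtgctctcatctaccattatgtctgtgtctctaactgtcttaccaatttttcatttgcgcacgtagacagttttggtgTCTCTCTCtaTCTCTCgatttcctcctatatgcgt
sup-26/R10E4.3, chrIII:4282255-4282405, + strand: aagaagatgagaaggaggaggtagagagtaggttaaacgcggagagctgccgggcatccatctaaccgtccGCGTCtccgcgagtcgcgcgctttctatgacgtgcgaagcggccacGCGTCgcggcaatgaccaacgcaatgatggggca
C33D9.3/clec-182, chrIV:8795164-8795314, + strand: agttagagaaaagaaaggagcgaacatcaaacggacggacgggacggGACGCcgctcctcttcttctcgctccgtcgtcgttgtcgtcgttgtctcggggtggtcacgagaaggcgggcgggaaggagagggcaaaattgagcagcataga
gcc-2/cbp-1, chrIII:9765553-9765703, + strand: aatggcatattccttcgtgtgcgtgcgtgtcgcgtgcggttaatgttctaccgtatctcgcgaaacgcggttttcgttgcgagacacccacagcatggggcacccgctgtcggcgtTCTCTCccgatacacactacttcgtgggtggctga

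Strong summits without either motif are shown for contrast. They are the 2 highest-scoring distal regions of all and the fifth.
cutl-22/cmd-1, chrV:1151421-1151571, + strand: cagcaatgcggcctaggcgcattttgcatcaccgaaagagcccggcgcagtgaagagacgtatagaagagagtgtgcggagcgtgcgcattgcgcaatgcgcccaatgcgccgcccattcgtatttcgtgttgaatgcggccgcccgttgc
saeg-1/cat-6, chrV:10871528-10871678, + strand: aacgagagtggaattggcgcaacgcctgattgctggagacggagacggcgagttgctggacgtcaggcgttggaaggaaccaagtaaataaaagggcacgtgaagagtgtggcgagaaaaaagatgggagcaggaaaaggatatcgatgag
nhl-2/tag-340, chrIII:4899872-4900022, + strand: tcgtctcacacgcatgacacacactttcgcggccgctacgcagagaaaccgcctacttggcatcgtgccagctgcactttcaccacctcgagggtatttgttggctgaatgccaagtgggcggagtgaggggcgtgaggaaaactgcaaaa

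The window between T04C4.3 and fnip-2 held 5 copies of GAGAGA and 3 of GACGC, and its GACGC lay in longer runs that read GAGACGCAGA or close to it. The window between srw-60 and nhr-88 held 5 copies of GAGAGA and none of GACGC. The top windows without a motif were not AT-rich either: GC content was 59.6% between cutl-22 and cmd-1, 51.7% between saeg-1 and cat-6 and 56.3% between nhl-2 and tag-340.

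The strongest distal region lay on chromosome V (1151382 to 1151661, summit 1151496), in a gap of 9769 bp between cutl-22, a gene for a ZP domain protein, and cmd-1, which encodes calmodulin. Its summit was inside linc-128, a long non-coding RNA gene. The score, the signal value of the authors' peak caller, was 756.1 in the list that the authors made from both replicates together (pooled), with 391.8 for replicate 1 alone and 366.8 for replicate 2 alone. It ranked 9 among all 1604 optimal regions. A pair of further distal regions lay between it and cmd-1, with summits 2139 bp and 1296 bp from the start of that gene. Their pooled scores were 204.1 and 227.0, their replicate 1 scores 110.2 and 126.0, and their replicate 2 scores 98.7 and 102.1. This was the strongest group of at least 3 distal regions within 10 kb.

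The second lay at V:10871497-10871770, 5904 bp upstream of saeg-1, whose product is a suppressor of activated egl-4, in the 15132 bp gap to the kinase gene cat-6. Its scores were 722.0 pooled, 408.2 in replicate 1 and 312.8 in replicate 2. The third, at III:9765518-9765753, lay 882 bp upstream of cbp-1, whose product is the worm relative of the histone acetyltransferases CBP and p300, and scored 676.1, 355.3 and 318.3 in the same order. The fourth, at III:4281983-4282570, lay 2106 bp upstream of sup-26, an RNA-binding protein gene, and scored 648.2, 358.8 and 306.4. The fifth, at III:4899817-4900050, was in the unclassified non-coding RNA gene F26F4.14 between nhl-2, a gene for a B-box protein, and tag-340, 561 bp from the latter's start. It scored 597.8, 339.3 and 269.8. Both replicates thus gave each of these 5 regions a high score, with the larger value in replicate 1.

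The next regions of the 15 strongest stood beside genes of varied function. The region between T04C4.3 and fnip-2 (IV:2219514-2219735), a homolog of folliculin-interacting proteins, scored 544.1 pooled, 326.1 in replicate 1 and 219.3 in replicate 2. A region 1041 bp from the start of mtm-3, a phosphoinositide phosphatase gene, scored 506.0 (289.5 and 221.5), and one 4277 bp from nhr-88, a nuclear hormone receptor gene, scored 494.9 (268.7 and 229.1). The region 1726 bp from egl-9, the prolyl hydroxylase that marks the hypoxia-inducible factor for destruction, scored 469.2 (270.5 and 199.3), and its summit was inside the non-coding genes F22E12.9 and F22E12.10. A region between elt-7, which encodes a GATA factor of the intestine, and C18G1.1 scored 444.5, with 217.2 in each replicate. The region between C33D9.3 and clec-182 scored 467.7 (254.6 and 215.1). On chromosome I, the region between mfb-1 and sup-17, the homolog of the ADAM10 protease, scored 421.7 (255.3 and 176.3). Each replicate list had a summit for all 15, and 13 scored higher in replicate 1. Their distances to the nearest protein-coding start ran widely: 4 were within 1000 bp and 7 were over 2000 bp away.

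**Figure D1:**
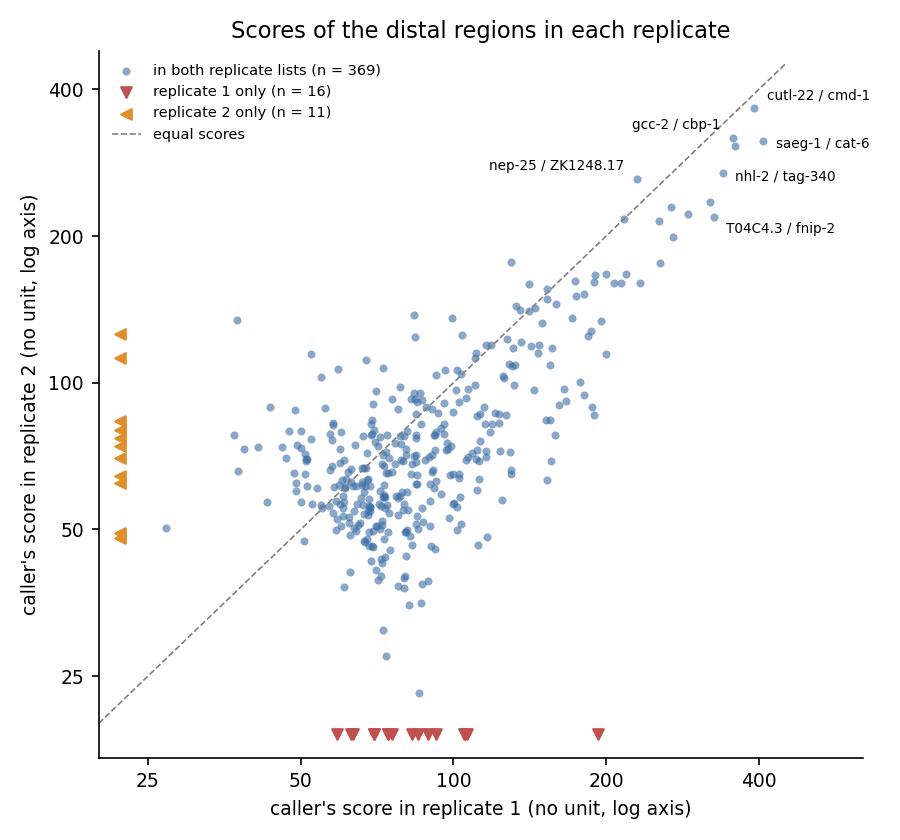
Scores of the 396 distal regions in replicate 1 (horizontal) and replicate 2 (vertical), the caller's values without unit on log axes, with some strong regions named by their flanking genes. The 369 regions with a summit in both lists are points, the 16 and 11 with a summit in 1 list are triangles at the margins, and the dashed line marks equal scores.

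Across the 396 regions the pooled score ran from 110.6 to 756.1, with a median of 146.0 and quartiles of 124.8 and 189.2. A summit of the replicate's own list lay within 100 bp in both replicates for 369 (93.2%), in replicate 1 alone for 16 and in replicate 2 alone for 11, and none was missing from both. Replicate 1 had the higher score in 271 of the 369 and replicate 2 in 98. The median ratio of replicate 1 to replicate 2 was 1.19, with quartiles of 0.989 and 1.47. In promoter regions the median ratio was 1.18. The summits of the replicates lay a median of 24 bp apart, and 282 pairs lay within 50 bp. These shares are not independent of the replicates, since the optimal list was derived from them.

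The share of regions that scored high in both replicates moved with the pooled score, which is built from the same reads, so this describes where the lists end and does not measure reproducibility. Of the 50 strongest distal regions, 49 (98.0%) were among the 1604 highest-scoring regions of each replicate. Of the 96 weakest, 10 (10.4%) were. Over all 396 the number was 240 (60.6%, 95% exact interval 55.6 to 65.4). A summit missing within 100 bp does not show that signal was absent from that replicate. Of the regions with such a summit in only 1 replicate list, the strongest was III:8417388-8417811. It lay 568 bp from sor-1, a gene related to sop-2 (276.8 pooled, 193.0 in replicate 1). Next came II:5321838-5322261, 1226 bp from the phosphatase gene vhp-1 (217.2 pooled, 125.9 in replicate 2). The third was II:5543691-5544114 beside the insulin-related gene ins-13 (190.3 pooled, 105.0 in replicate 1). Its summit lay 305 bp from the nearest snRNA start and 205 bp from that of a stronger distal region in the same gap (361.8 pooled). The window of the second is a run of GA repeat, with 22 overlapping copies of GAGAGA.

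**Figure D2:**
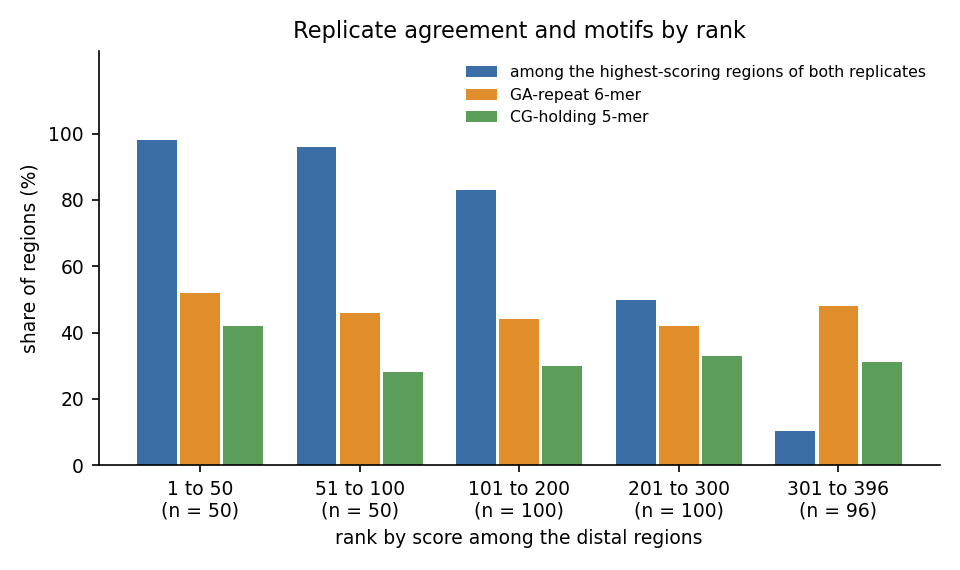
Share of distal regions, in %, in bins of rank by pooled score, that were among the 1604 highest-scoring regions of both replicates, held GAGAGA (GA-repeat 6-mer) or held GACGC (CG-holding 5-mer) within 75 bp of the summit. The share high in both replicates goes from 98.0% to 10.4%, which the ranking by pooled score builds in, while the motif shares lie between 42.0% and 52.0% for GAGAGA and between 28.0% and 42.0% for GACGC.

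The 396 regions made up 31.4% of autosomal optimal regions (95% exact interval 28.8 to 34.0). Among 22548 weaker autosomal regions, pooled regions with no overlap to an optimal one, 5181 (23.0%, 22.4 to 23.5) met the same rule. The share was higher in the optimal list (two-sided Fisher's exact p = 3.00e-11, odds ratio 1.53). Read the other way, 6.96% of the 5687 pooled regions that met the rule were optimal (6.32 to 7.66), against 5.22% of the 24165 autosomal regions of the pooled list. The replicates gave odds ratios of 1.46 (replicate 1 list alone) and 1.39 (replicate 2 list alone). Regions are not replicates of a condition, so this and every later p over regions measures scatter among regions of 1 data set, some of which share a gap, and the intervals cover counting error only.

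The distal regions were spread over all 5 autosomes. Chromosome V held 91, III 80, IV 79, I 75 and II 71, and they made up between 30.2% (V) and 32.9% (II) of each chromosome's optimal regions. Sequence that meets the rule covers 23.5 Mb, 28.4% of the autosomes, and held 16.9 distal regions per Mb. The density ran from 13.6 per Mb on IV to 23.5 per Mb on III. The weaker distal regions had the same extremes, with 167.5 per Mb on IV and 274.6 on III. The median score was between 140.5 (I) and 151.5 (III) on every autosome. The arms, taken as the left and right of 3 equal parts of each chromosome, held 59.6% of the distal regions (54.6 to 64.5) and 66.3% of the weaker distal regions (65.0 to 67.6), a lower share (odds ratio 0.748, adjusted exact p = 0.0141). With a limit of 1000 bp in place of 500 bp the difference no longer passed (odds ratio 0.807, adjusted exact p = 0.141).

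The distance to the nearest protein-coding start had a median of 1917.5 bp, with quartiles of 977.75 and 3071.5 bp. It exceeded 2000 bp in 190 regions (48.0%) and 10000 bp in 5. The weaker distal regions were somewhat farther, with a median of 2129 bp and 52.9% beyond 2000 bp. The farthest of all, IV:14594231-14594654, lay 13404 bp from the start of irld-18 and 22160 bp from dmd-6, a gene for a DM domain protein, and scored 303.6 pooled, 140.8 in replicate 1 and 159.5 in replicate 2. The others beyond 10000 bp lay between snt-1, the synaptotagmin gene, and egl-27 (114.2), between plg-1 and K01F9.2 (271.8), between daf-5, the Ski homolog of the dauer pathway, and rpb-11 (128.3), and between irld-55 and Y37A1B.7 (164.0). Distance and score showed little relation by class: the median score was 144.4 beyond 2000 bp and 148.1 up to 2000 bp. Just inside the limit, at 505 bp, lay V:17951232-17951655 beside Y59A8B.24 (234.8) and III:8043869-8044058 beside K12H4.5 (367.3). Just outside it lay II:6888091-6888514, 498 bp from pmp-2 (140.3), and II:14251648-14252071, 497 bp from Y54G11A.2 (161.0).

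**Figure D3:**
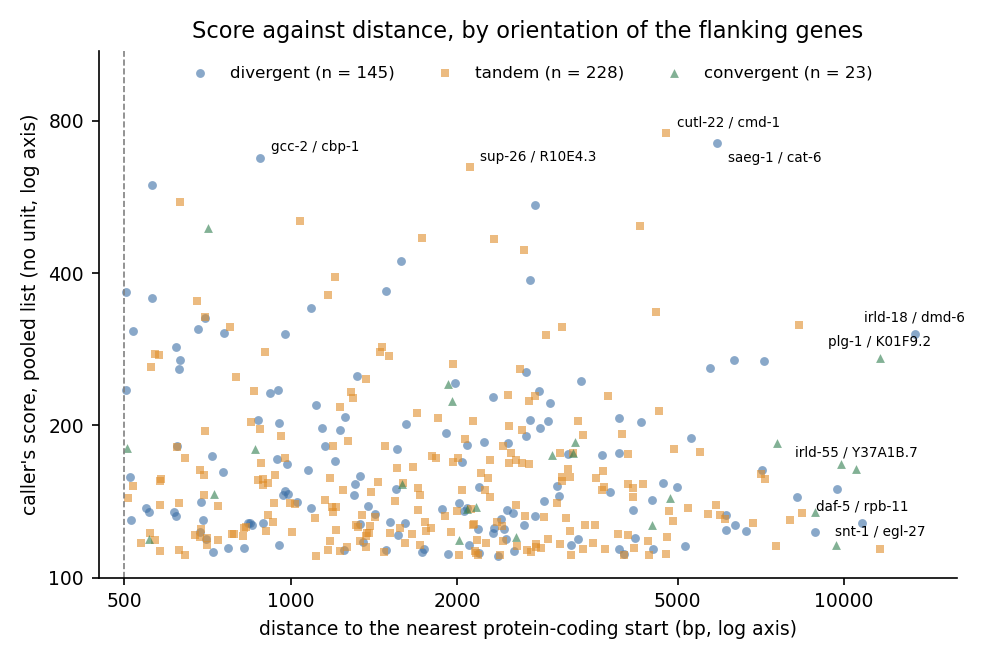
Pooled score (no unit, log axis) of each distal region against the distance from its summit to the nearest protein-coding transcript start (bp, log axis), by the orientation of the flanking genes. The dashed line is the 500 bp limit of the rule, and the 4 strongest regions and the 5 farthest are named.

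The orientation of the flanking genes differed between distal and weaker distal regions. A gap is divergent where both neighbouring genes point away from it, so that both have their upstream side there, and convergent where both end in it. Convergent gaps held 23 distal regions (5.81%, 3.72 to 8.59) against 11.9% of the weaker ones (11.0 to 12.8), with an odds ratio of 0.467 (adjusted exact p = 3.25e-04). Divergent gaps held 145 (36.6%, 31.9 to 41.6) against 30.9% (29.7 to 32.2), with an odds ratio of 1.29 (adjusted exact p = 0.0362). Tandem gaps held 228 (57.6%) against 57.2%, which did not pass (odds ratio 1.02, adjusted exact p = 0.875). The convergent difference no longer passed in the replicate 2 list alone (0.682, adjusted exact p = 0.0833) or in the higher-scoring part of the optimal list (0.574, adjusted exact p = 0.0743). The divergent one no longer passed under 5 alternatives, with odds ratios from 1.22 to 1.37. A gene end lay within 500 bp of 14.9% of distal and 18.6% of weaker distal summits, which did not pass (adjusted exact p = 0.103). By a count added after these values were seen, and not tested, 327 distal summits (82.6%, 78.5 to 86.2) lay upstream of the nearest start, against 72.5% (71.2 to 73.7) of the weaker ones.

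The strongest distal region in a convergent gap was II:5844719-5844968, between nep-25, a gene for a neprilysin-type peptidase, and ZK1248.17, at 491.8 pooled, 230.1 in replicate 1 and 262.3 in replicate 2. This region and that beside elt-7, where the replicates were nearly equal, were the 2 of the 15 strongest with the higher score in replicate 2. Its summit lay 33 bp from the start of sls-2.1. The sls-2 genes encode the SL2-type spliced leader RNAs, which are joined to the messages of downstream genes of operons.

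The 396 regions fell into 334 gaps between protein-coding genes. Of these, 285 held 1 region, 41 held 2 and 8 held 3 or more, and 20 regions overlapped another. The fullest gap, 19905 bp between T28C12.6 and bcl-11 on chromosome V, held 6 regions over 14038 bp, with pooled scores from 115.5 to 260.1. The gap between saeg-1 and cat-6 and that between srw-60 and nhr-88 held 4 each. In both, 1 strong region (722.0 and 494.9) stood with 3 of at most 183.3. These gaps were named after their counts were seen. When the strongest region of each gap was kept in both sets, an alternative added later, the number of position and sequence features that differed was 8 in place of 7 of 12, with the end of a gene within 500 bp as the addition.

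Starts of microRNA genes lay within 500 bp of 7 distal summits (1.77%, 0.714 to 3.61) and of 21 weaker ones (0.405%, 0.251 to 0.619), with an odds ratio of 4.62 (adjusted exact p = 0.00663). The odds ratio was larger in the replicate 2 list alone (7.30) and in the higher-scoring part of the optimal list (8.60). MicroRNAs are short RNAs that repress messages they pair with, and their genes have promoters of their own where they lie between genes. The strongest of these regions, III:8865323-8865746, lay 168 bp from the annotated start of mir-80 and scored 271.8 pooled, 135.2 in replicate 1 and 140.8 in replicate 2. A region 466 bp from mir-241, a member of the let-7 family, scored 268.9 (177.3 and 100.4). The clustered genes mir-51 and mir-53 had regions at 51 bp (185.4, with 101.3 and 96.6) and 145 bp (153.5, with 66.3 and 77.6), in the gap between alh-3 and hrg-5, and mir-52, another gene of the same family, had one at 81 bp. The mir-52 region stood apart between replicates, with 37.4 in replicate 1 and 134.7 in replicate 2, for 168.1 pooled. The other regions lay 73 bp from mir-8209 (204.2) and 244 bp from mir-79 (144.0). The annotated starts are those of the hairpins, not of the primary transcripts.

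Windows at microRNA genes are printed here, in the same form, because these genes were over-represented beside the distal summits. They are those beside 5 of the 7, in order of score: mir-80, mir-241, mir-51, mir-52 and mir-53. The window beside mir-51 holds neither motif.
plg-1/K01F9.2, chrIII:8865460-8865610, + strand: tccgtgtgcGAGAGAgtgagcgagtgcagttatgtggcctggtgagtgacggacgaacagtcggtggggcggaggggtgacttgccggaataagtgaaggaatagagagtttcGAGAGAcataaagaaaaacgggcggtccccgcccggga
Y49A3A.4/unc-39, chrV:14366674-14366824, + strand: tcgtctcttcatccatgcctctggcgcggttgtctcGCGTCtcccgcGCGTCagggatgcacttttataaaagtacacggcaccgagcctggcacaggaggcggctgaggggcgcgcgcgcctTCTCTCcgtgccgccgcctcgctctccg
alh-3/hrg-5, chrIV:11026088-11026238, + strand: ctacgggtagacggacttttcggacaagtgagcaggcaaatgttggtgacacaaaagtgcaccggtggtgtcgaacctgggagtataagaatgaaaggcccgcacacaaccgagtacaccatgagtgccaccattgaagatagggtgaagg
irld-55/Y37A1B.7, chrIV:14033852-14034002, + strand: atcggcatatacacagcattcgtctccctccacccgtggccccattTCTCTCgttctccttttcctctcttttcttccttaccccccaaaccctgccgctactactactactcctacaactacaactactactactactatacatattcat
alh-3/hrg-5, chrIV:11027761-11027911, + strand: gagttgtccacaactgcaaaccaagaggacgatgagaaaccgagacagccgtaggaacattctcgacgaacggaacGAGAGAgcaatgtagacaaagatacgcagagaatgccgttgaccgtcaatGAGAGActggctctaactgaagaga

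Classes of non-coding gene differed in how often they were found under distal summits. Any non-coding gene or pseudogene was at 58 distal summits (14.6%, 11.3 to 18.5) and at 13.3% of weaker ones (12.4 to 14.3), which did not pass (odds ratio 1.13, adjusted exact p = 0.533). Counts per class were added after this value was seen and were not tested. Unclassified ncRNA genes were at 50 distal summits (12.6%, 9.52 to 16.3) against 3.82% of weaker ones (3.32 to 4.38), and 11 of these 50 were among the 50 strongest. Pseudogenes were at 3 distal summits (0.758%, 0.157 to 2.20) against 8.42% (7.67 to 9.20), which offset the former in the combined count. The strongest at a pseudogene, 228.3 pooled, lay in wago-2 on chromosome I, an Argonaute pseudogene. Long non-coding RNA genes were at 4 distal summits (1.01%) and at 0.946% of weaker ones. Which class a transcript is given to is a decision of the annotation, and its part in these shares was not tested.

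Starts of snRNA genes, also counted after the values were seen and not tested, lay within 500 bp of 10 distal summits (2.53%, 1.22 to 4.59) and of 12 weaker ones (0.232%, 0.120 to 0.404). Of the 10, 6 lay beside sls-2 genes in 3 gaps, as pairs of regions with summits 203 to 216 bp apart. Regions at sls-2.4 (I:4172125-4172361, between egg-5 and R12E2.11), sls-2.1 and sls-2.2 ranked 6, 10 and 19 among the distal regions. Their pooled scores were 552.0, 491.8 and 361.8, with 320.8, 230.1 and 213.6 in replicate 1 and 235.2, 262.3 and 159.9 in replicate 2. The windows at sls-2.4 and sls-2.1 shared 15 words of 31 letters, so reads wholly inside the shared sequence could be placed at either. Of the words of these windows, 81.0% and 74.4% were found once in the genome. With 1 region kept per gap the share near snRNA starts was 2.10%. With the limit at 1000 bp it was 0.347%, or 1 region. Starts of piRNA genes lay within 500 bp of 13 distal summits (3.28%) and 4.36% of weaker ones, which did not pass (adjusted exact p = 0.490). Of the 13, 12 were on chromosome IV, which carries the large piRNA clusters, and the strongest of them was the region 13404 bp from irld-18 given above.

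Repeats were less common under distal summits. The summit base was soft-masked in the reference, as repeats and low-complexity sequence are, in 70 (17.7%, 14.05 to 21.8) against 27.5% of weaker distal regions (26.3 to 28.7), with an odds ratio of 0.569 (adjusted exact p = 4.92e-05). Windows were single-copy, with at least 50% of their 31-letter words found once in the genome, in 98.5% of distal and 97.9% of weaker regions (odds ratio 1.32, adjusted exact p = 0.636). The 6 multi-copy windows included I:2639739-2639870 between F40E3.3 and mage-1, at rank 15 (392.5 pooled, 233.7 and 160.1). Its words occurred a median of 5 times in the genome. It shared 37 of them with the region at rank 34 between K08F11.1 and fbxb-78 on chromosome IV (301.4).

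The motifs gave the smallest p-values of the 12 features compared with weaker distal regions. They were set as features with earlier results of these data known, so these p-values are not independent support for them. GAGAGA was within 75 bp of 181 distal summits (45.7%, 40.7 to 50.8) and of 16.7% of weaker ones (15.7 to 17.8), with an odds ratio of 4.19 (adjusted exact p = 2.85e-36). GACGC was within 75 bp of 128 (32.3%, 27.7 to 37.2) against 13.1% (12.2 to 14.04), with an odds ratio of 3.18 (adjusted exact p = 3.70e-20). A total of 78 regions (19.7%) held both and 165 (41.7%) neither. By score among the distal regions, GAGAGA was in 52.0% of the 50 strongest and in 47.9% of the 96 weakest. GACGC was in 42.0% of the 50 strongest, in 28.0% of the next 50 and in 31.3% of the 96 weakest, and these differences were not tested. Base composition moved with these shares. The median GC content of the 151 bp windows was 47.7% for distal summits and 39.7% for weaker ones, and 32.5% and 33.8% for windows centred 400 bp to one side. Within bins of 5 percentage points of GC, a comparison added later, the Mantel-Haenszel odds ratios were 3.00 for GAGAGA and 1.94 for GACGC. In the 100 distal and 959 weaker windows without a soft-masked base they were 2.58 (exact p = 3.48e-05) and 2.80 (exact p = 2.81e-05).

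**Figure D4:**
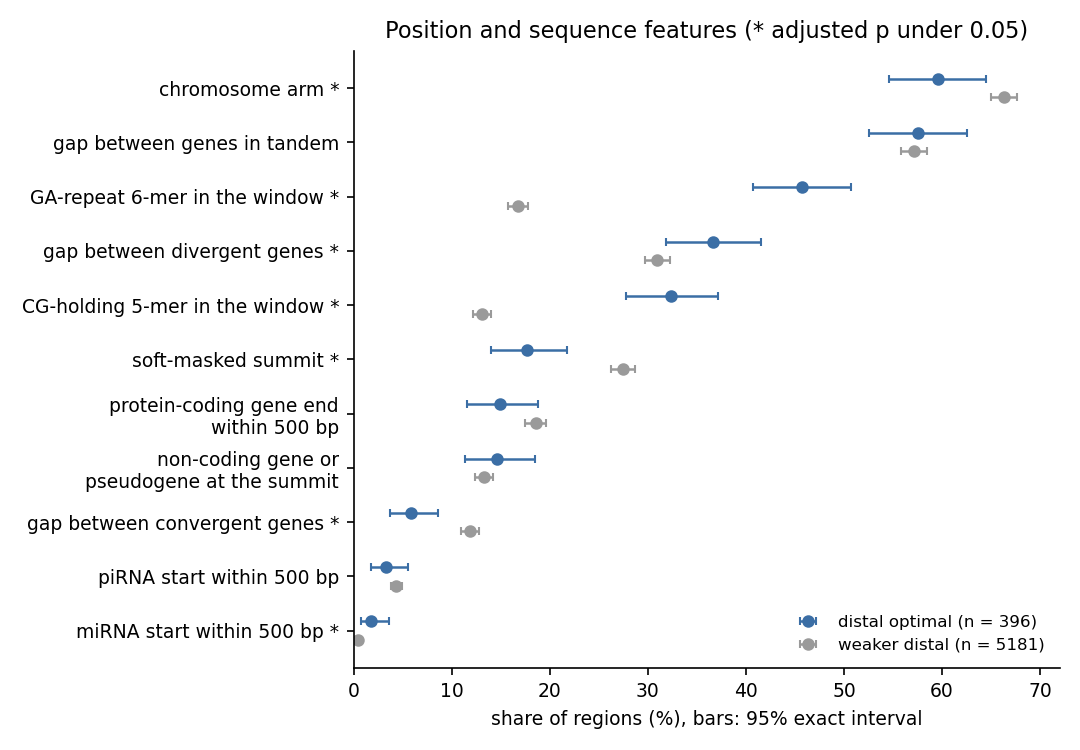
Share of the 396 distal optimal regions (blue) and the 5181 weaker distal regions (grey) with each feature of position or sequence, in %, with 95% exact intervals. GAGAGA (GA-repeat 6-mer) stands at 45.7% against 16.7% and GACGC (CG-holding 5-mer) at 32.3% against 13.1%, and asterisks mark adjusted exact p-values under 0.05.

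Both motifs were frequent over at least about 100 bp on each side of the distal summits, with no peak in the central bin itself. GAGAGA started in the central 50 bp of 21.2% of distal regions, in the bins next to it of 23.2% and 24.0%, and in the 50 bp bins 400 bp away of 4.80% and 4.04%. It was still in 14.6% and 15.4% at 150 bp and in 11.1% and 8.84% at 200 bp. In weaker distal regions GAGAGA was in 6.66% at the centre, in 6.77% and 6.68% beside it, and in 3.26% and 2.95% at 400 bp. GACGC started in the central bin of 13.1% of distal regions, in the bins next to it of 10.4% and 13.9%, and in those 400 bp away of 4.55% and 2.78%. In the weaker ones it was in 4.52% at the centre, in 4.86% on either side of it, and in 2.78% and 3.11% at 400 bp.

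**Figure D5:**
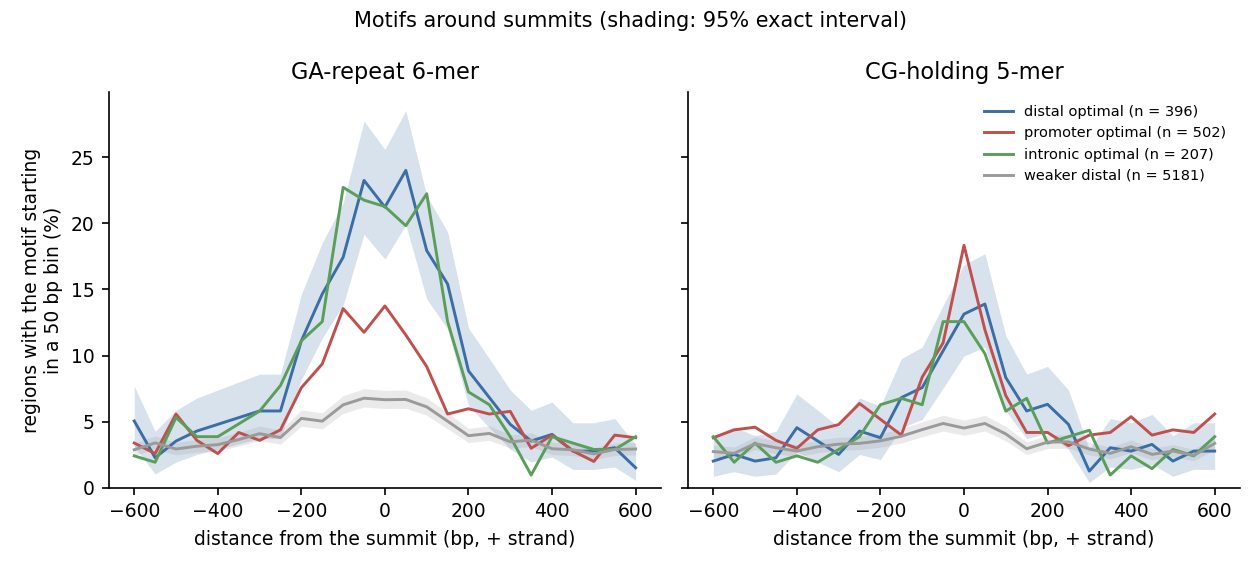
Share of regions, in %, with GAGAGA (left) or GACGC (right) on either strand starting in a 50 bp bin, by the bin's distance from the summit in bp. Distal optimal regions (blue) are highest in the bin centred 50 bp to the right, at 24.0% and 13.9%, with 21.2% and 13.1% in the central bin, where weaker distal regions (grey) stand at 6.66% and 4.52%, and shading gives 95% exact intervals.

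All words of 6 letters, each counted with its reverse complement, were compared between each distal summit window and its own window 400 bp away by exact McNemar tests, adjusted after Benjamini and Hochberg. At an adjusted p under 0.05, 365 were more frequent at summits (17.5% of those tested) and 245 less frequent (11.8%). With flanks on the other side, an alternative added later, 336 were more frequent, of which 255 were among the 365. In the main comparison GAGAGA was in 45.7% of summit windows and 8.08% of flanks. It was present in the summit alone in 167 regions and in the flank alone in 18 (adjusted exact p = 8.13e-29). AGAGAG (43.7% against 7.32%) and AGAGAA (48.7% against 12.6%) behaved alike, as words that overlap it. Of the words that hold GACGC, the form GACGCA was in 21.7% against 5.05% (adjusted exact p = 8.32e-11) and AGACGC in 21.2% against 5.05% (adjusted exact p = 7.57e-10). CGACGC (7.58% against 1.77%) and GCGTCC (3.03% against 0.253%) also passed. The call of GCGTCC ended under 5 alternatives. Its ratio of regions with the word in the summit alone to those with it in the flank alone, 0.5 being added to each, was 8.33. In the replicate 2 list alone that ratio was 1.91 (adjusted exact p = 0.499). Against weaker distal summits, an unpaired comparison, its odds ratio was 1.63 (Fisher's exact test, adjusted p = 0.292). It also did not pass with 50 bp on each side (0.115), in single-copy unmasked regions (0.116) or in the higher-scoring part of the optimal list (0.466). The forms GACGCC (adjusted exact p = 0.0621), AGCGTC (0.179), CGCGTC (0.214) and GCGTCA (1) did not pass in the main comparison. The words with the smallest p-values that were less frequent at summits held only A and T. AAAATT was in 13.4% of summits and 62.1% of flanks (adjusted exact p = 1.31e-38), TTAAAA in 6.06% and 47.7%, AAAAAT in 22.7% and 69.9%, TAAAAA in 11.4% and 53.5%, AAATTT in 8.08% and 42.4%, AAATTA in 6.57% and 37.9% and TTTAAA in 3.28% and 31.3%.

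Flanks differ from summits in GC content, so the words were also compared with the summits of weaker distal regions. By Fisher's exact test with the same adjustment 297 were more frequent in the distal regions, of which 243 were among the 365. GAGAGA had an odds ratio of 4.19, AGACGC of 4.57 and GACGCA of 4.34. A longer form that holds GACGC, found by counting words of 10 letters after the windows were seen and not tested, was GAGACGCAGA. It was in 46 distal windows (11.6%), 118 weaker distal windows (2.28%), 39 promoter windows (7.77%) and 20 intronic windows (9.66%). Of the 50 strongest distal regions 8 held it, that between T04C4.3 and fnip-2 among them, where it stands at IV:2219585-2219594.

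Distal regions were then set against other classes of autosomal optimal regions, which do not cover all of the rest. Promoter regions were the 502 with a summit within 500 bp of a protein-coding start. These could lie inside genes or near tRNA and snoRNA starts. Intronic regions were the 207 in introns beyond 500 bp. Of 7 features tested against each, 1 passed, namely GAGAGA against promoter regions: 45.7% against 28.3% (24.4 to 32.4), with an odds ratio of 2.13 (adjusted exact p = 1.30e-06). Against intronic regions it was 45.7% and 45.9% (39.0 to 52.9), with an odds ratio of 0.992 (adjusted exact p = 1). GACGC was in 32.3% of distal, 35.3% of promoter and 30.4% of intronic windows, and neither difference passed. No difference in strength passed. Scores above the autosomal median were held by 47.2% of distal (42.2 to 52.3), 52.8% of promoter (48.3 to 57.2) and 51.2% of intronic regions (44.2 to 58.2), with adjusted exact p-values of 0.498 and 0.789. The median scores were 146.0, 152.1 and 153.6. The 25 strongest autosomal regions included 5 distal ones and the 100 strongest 28. The share among the 1604 highest of both replicates was 60.6%, 65.1% and 62.8%, and no difference in it passed.

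Among the 6-letter words, 23 were more frequent at distal than at promoter summits (1.11% of those tested) and 32 less frequent (1.54%). The first kind was led by words of G and A: AGAGAA was in 48.7% of distal and 27.1% of promoter windows (odds ratio 2.55, adjusted exact p = 5.81e-08), and odds ratios were 2.34 for AGAGAG, 2.23 for AAGAGA, 2.13 for GAGAGA, 2.32 for AAGAAG and 2.16 for AGAAGA. The second held AAAAAT (22.7% against 41.8%, adjusted exact p = 1.30e-06), AAAATT (13.4% against 28.7%), ACCGTA (2.78% against 10.8%, adjusted exact p = 4.68e-04) and AATTGC (6.06% against 15.5%). ACCGTA no longer passed at a limit of 1000 bp (adjusted exact p = 0.0980), at 250 bp (0.245, with an odds ratio of 0.502 in place of 0.245) or in the higher-scoring part (0.0819). AATTGC was lost at 1000 bp (0.0615) and in the higher-scoring part (0.0861), AAAAAT with 50 bp on each side (0.0773), and AAGAAG at 250 bp (0.0895) and in the higher-scoring part (0.133), all adjusted exact p-values. GCGTCA, a form of the GACGC motif with a different neighbour, was less frequent at distal summits (3.54% against 10.2%, adjusted exact p = 0.0103), but not in either replicate's own list (adjusted exact p = 0.251 and 0.0780), with 1 region per gap (0.0712), at a limit of 1000 bp (0.309) or 250 bp (0.267), or in the higher-scoring part (0.243). The other 7 words that hold GACGC did not pass in either direction in the main comparison, GACGCA being in 21.7% of both sets. In the replicate 1 list alone CGCGTC passed as less frequent at distal summits (odds ratio 0.402, adjusted exact p = 0.0192).

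The genes with the nearest start were grouped by symbol into 10 families, as counts without a test. Nuclear hormone receptor genes, a family of ligand-regulated factors that is large in nematodes, were nearest to 8 distal regions (2.02%) and 2.08% of weaker ones, with nhr-88 at 3 of its 8. Homeobox genes were nearest to 4 (1.01% against 0.695%): ceh-22, a pharynx factor (163.7), unc-62 (139.1), ceh-13, a Hox gene whose region lies in the gap to lin-39 (128.3), and ceh-48 (127.8). Other transcription factor genes by symbol, hlh-11, fkh-7 and zip-9, were nearest to 4 (1.01% against 1.00%). Genes with chemoreceptor-like symbols were nearest to 5 (1.26% against 3.61%), of which src-1 is a kinase gene caught by the pattern. Neuropeptide and insulin genes were nearest to 3 (0.758% against 1.14%). Of these 3, the strongest (361.8 pooled) was the region at sls-2.2, and another was its neighbour in the gap beside ins-13. Ribosomal protein, F-box and C-type lectin genes were nearest to 1 each. No region had a collagen or heat shock gene nearest, against 0.521% and 0.386% of weaker ones. A nearest gene is a position, and no expression was measured.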

How the data were processed

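The data were ChIP-seq regions of 1 group of 2 biological replicates. The authors deposited 4 peak lists on ce11 (coordinates as in WBcel235): a relaxed list per replicate, a pooled relaxed list and an optimal list, per the README deposited with them. Each region has a score, the caller's signal value, deposited by the authors, and the −log10 of a q-value, also deposited, which was not tested. Summits came from the offset column. The aligner, the caller, their versions and the threshold were not given in the sources used here, the depth is unknown, and controls were not used. The optimal list holds exactly the highest-scoring regions of the pooled list.

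Regions were annotated with RefSeq (WormBase) and sequence read with Python 3.11.15 (NumPy 2.4.6, pandas 2.3.3, SciPy 1.17.1). Shares of regions were compared with two-sided Fisher's exact tests, 0.5 being added per cell for odds ratios, and 6-letter words with exact McNemar tests in windows of 75 bp on each side of the summit, with Benjamini-Hochberg adjustment within each family (12 location features, 14 class tests, 2080 words). Calls were made at 0.05, and intervals are 95% Clopper-Pearson. The tests were checked on simulated windows. The replicates enter only through their own lists. Regions were named by rank, gap orientation, class of non-coding gene, distance and chromosome, and 6-letter words by smallest p. Members, lists and features were chosen with earlier results of these data known.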

Additional observations from a re-analysis of the deposited data

How the results depend on the processing

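The higher distal share kept its direction and side of the threshold under all 7 alternatives, with odds ratios from 1.30 to 1.92. The number of differing features of position and sequence stayed between 5 and 8 of 12, and both motifs, the soft-masked summit and the microRNA start were called wherever they were tested. No paired analysis was possible because there is 1 group, and the replicate numbers pair no groups.

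Counts of 6-letter words moved most. Against flanks, more frequent words numbered 227 with 50 bp on each side and 164 in the higher-scoring part of the optimal list, where less frequent ones numbered 150. Against promoter regions, less frequent words numbered 49 with 100 bp on each side, 13 with 50 bp, 15 at a limit of 1000 bp, 18 at 250 bp, 9 in the higher-scoring part, 17 with 1 region per gap and 17 to 24 with a replicate left out. More frequent ones numbered 13 at 250 bp, 9 with 50 bp on each side, 10 in the higher-scoring part and 14 with 1 region per gap. The features that separated distal from promoter and intronic regions numbered 1 to 2 with a replicate left out. The cause of these shifts was not tested. The higher-scoring part and the set with 1 region per gap hold fewer regions.

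Direction changed only for results that did not pass in the main comparison, and none passed after the change. The odds ratio of tandem gaps was 0.954 at 250 bp, 0.918 in the higher-scoring part, 0.995 with whole regions outside genes and 0.964 to 0.973 with a replicate left out. That of any non-coding gene was 0.931 at 1000 bp and 0.995 to 1.01 with a replicate left out. In the higher-scoring part that of piRNA starts was 1.04 and that of single-copy windows 0.730, and with a replicate left out that of gene ends was 0.841 to 1.02. Against intronic regions, GAGAGA stood at 1.06 with 1 region per gap, 1.02 at 1000 bp, 1.04 with whole regions outside genes and 0.896 to 1.19 with a replicate left out, and single-copy windows at 0.777 at 1000 bp, 0.877 at 250 bp, 0.970 with whole regions outside genes and 0.787 to 1.16 with a replicate left out. Agreement of both replicates stood at 1.03 at 1000 bp. With a replicate left out GACGC stood at 0.978 to 1.30, scores above the median at 0.848 to 1.04 and soft-masked summits at 0.528 to 1.08, of which 0.528 passed. Against promoter regions at 1000 bp, GACGC stood at 1.18, the arm at 1.17 and single-copy windows at 1.37, and with a replicate left out the arm at 0.877 to 1.02 and soft-masked summits at 0.829 to 1.04.

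Of single words against flanks, GCGTCA had ratios of 1.06 with 100 bp on each side, 1.32 at 1000 bp, 1.71 at 250 bp and 1.26 with flanks on the other side. They were 1.15 in the higher-scoring part, 1.09 with whole regions outside genes and 0.744 to 1.44 with a replicate left out. Against weaker summits, where the comparison is unpaired, its odds ratio was 1.05. Against promoters, AGCGTC had 1.07 at 1000 bp and 1.13 at 250 bp, GACGCA 0.994 in single-copy unmasked regions, 0.982 with whole regions and 0.928 to 1.02 with a replicate left out, GACGCC 0.798 at 1000 bp and 0.870 to 1.79 with a replicate left out, and GCGTCC 0.993 with 100 bp, 0.968 with 50 bp, 0.797 in single-copy unmasked regions, 0.995 with whole regions and 0.932 to 1.14 with a replicate left out. The alternatives by GC, by masking, by gap and by the other flank were chosen after seeing the data. Depth and the control behind each list are unknown, which limits how scores can be read, and with 2 samples of 1 group no value rests on a test over samples.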

Other observations

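A pair of the 7 strongest distal regions shared a near-palindromic word that none of the tests above addressed. The longest word common to the windows of the regions between nhl-2 and tag-340 and between T04C4.3 and fnip-2, found after the windows were seen, was TTGGCATCGTGCCA, which stands at III:4899928-4899941. It was in these 2 of 396 distal windows, in 1 of 502 promoter windows, in 1 of 207 intronic windows and in 0 of 5181 weaker distal windows. A related form, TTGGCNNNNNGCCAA, leaves the 5 letters between its arms free, written N, but asks for a further A at the end. It also matched in the window between nhl-2 and tag-340, at another place (III:4899972-4899986). In the window between T04C4.3 and fnip-2 it matched over the shared word itself, read on the other strand. This related form was in 5 distal windows (1.26%), 10 promoter windows (1.99%), no intronic window and 17 weaker distal windows (0.328%). This spacing is that of the textbook site of nuclear factor I proteins in mammals. The counts are small, the word was chosen on these windows, and no test was made.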
